A study of Rattus norvegicus with 6 samples.

Results

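The interferon-induced genes examined here were Irf7, Mx1, Mx2, Oas1a, Isg15, Ifit3 and Rsad2, together with Slfn3 and RGD1309362. These 9 genes, of 17051 in the deposited tables, were picked by symbol because Slfn3 and RGD1309362 were known to be among the most strongly lowered genes of this same comparison. Their differences between the groups are therefore a description, and no test of them is given. The study asked how the kidney responds to an increased production of ammonia. Kidney tissue came from male Sprague Dawley rats, an outbred laboratory strain, with each rat giving a library of its own. The AL group (rats 61, 71 and 88) ate standard powdered chow ad libitum. The HD group (rats 64, 67 and 69) ate the same kind of chow mixed with amino acids in the proportions of hemoglobin, at 3 g per kg per day, the diet labelled hyperammonemic. Both were fed for 7 days, animals were assigned at random, and the age of the rats is not given in the sources used here. The tissue is a mixture of kidney cells, so fewer cells of a type and less RNA per cell cannot be told apart.

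Interferons are secreted proteins that warn cells of infection. Type I and type III interferons bind receptors that act through the kinases JAK1 and TYK2 and through a complex of STAT proteins and IRF9 that binds the interferon-stimulated response element (ISRE) in the promoters of its target genes, whereas interferon gamma acts mainly through pairs of STAT proteins on the gamma-activated site (GAS). Most targets encode antiviral proteins that are made at a low basal level in healthy tissue, in epithelial and endothelial cells as well as in leukocytes. The Schlafen genes, to which Slfn3 belongs, are expressed in lymphocytes and myeloid cells, and several of them respond to interferon.

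Promoter windows are shown first, since the ISRE is the element through which interferon-induced genes are known to respond. RefSeq windows from 250 bases before to 50 bases after the transcription start (build GRCr8) were given for 6 of the 9 members, and Isg15, Mx2 and RGD1309362 are named only. An ISRE core, searched on both strands as GAAA, any 2 bases and GAAA again, was found in 4 of the 6, against 3.92% of all 33469 windows. The stretches around these matches are printed 5′ to 3′ on the strand of the gene, with the matched bases in capitals. In Oas1a the capitals hold 2 matches that overlap, and in the other windows the core reads on the opposite strand, as TTTC, 2 bases and TTTC.
Irf7 (chr1:205800038-205800137, minus strand): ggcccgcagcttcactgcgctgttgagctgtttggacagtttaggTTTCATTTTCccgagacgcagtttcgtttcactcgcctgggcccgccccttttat
Ifit3 (chr1:241527226-241527325, plus strand): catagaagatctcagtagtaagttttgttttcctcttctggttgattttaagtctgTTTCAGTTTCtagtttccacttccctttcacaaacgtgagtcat
Rsad2 (chr6:48788213-48788312, minus strand): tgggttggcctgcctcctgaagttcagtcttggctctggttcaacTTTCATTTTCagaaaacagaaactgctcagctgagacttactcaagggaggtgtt
Oas1a (chr12:41330366-41330465, plus strand): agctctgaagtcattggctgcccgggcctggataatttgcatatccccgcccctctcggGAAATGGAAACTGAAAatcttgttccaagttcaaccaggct

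Counted from the transcription start, the core lay at bases -69 to -60 in Irf7, -44 to -35 in Ifit3, -147 to -138 in Rsad2, and -41 to -32 and -35 to -26 in Oas1a. The GAS motif, searched as TTCNNNGAA on both strands, was found in the Oas1a window alone among the 6, at bases -199 to -191, and in 8.87% of all windows. Neither motif was found in the windows of Mx1 and of the gene measured as Slfn3. The latter is printed because this gene differed most between the diets. RefSeq now lists the transcript that the deposited tables call Slfn3 under the symbol Slfn4, with Slfn3 as a synonym, and gives the symbol Slfn3 to another locus, and whether reads of these near relatives were mixed was not tested.
Slfn3 of the tables, Slfn4 in RefSeq (chr10:68492020-68492219, plus strand): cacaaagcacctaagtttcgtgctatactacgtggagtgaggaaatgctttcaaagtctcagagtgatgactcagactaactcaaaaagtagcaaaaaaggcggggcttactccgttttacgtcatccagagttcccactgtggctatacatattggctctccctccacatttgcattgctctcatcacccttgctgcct

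**Figure D1:**
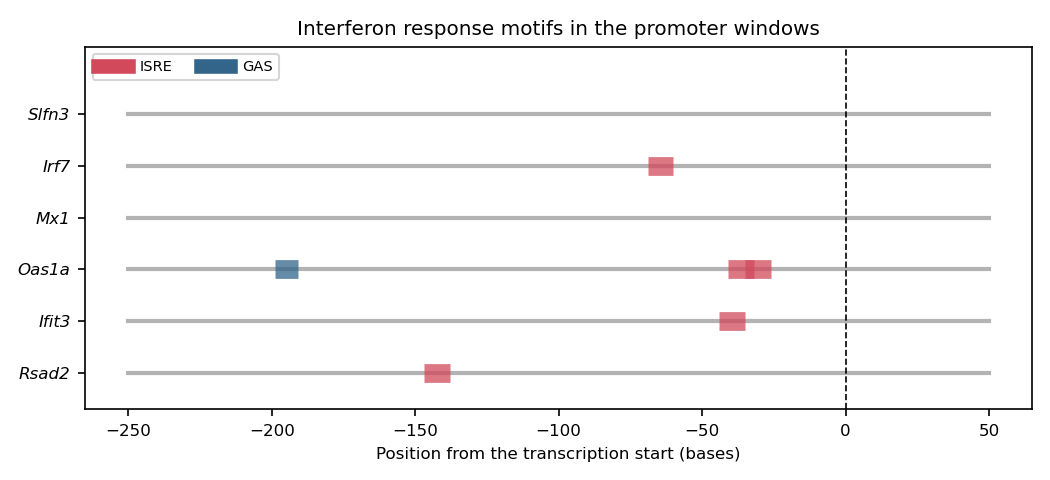
Each grey line is the promoter window of 1 member, from 250 bases before to 50 bases after the transcription start (dashed line), with the position in bases on the horizontal axis. Red blocks mark ISRE cores and the blue block a GAS motif. ISRE cores stand upstream of the start in Irf7, Oas1a, Ifit3 and Rsad2, and the lines of Slfn3 and Mx1 are empty.

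Libraries held between 12499945 and 30466461 counts, and rat 64 was the shallowest and rat 69 the deepest. All 9 members passed the filter of at least 30 counts in at least 1 rat that 11553 genes passed, and the lowest count of a member in any rat was 39, for Rsad2 in rat 64. After adjustment in edgeR, 0 genes reached the threshold of 0.05 (0.0% of those tested), 1224 had an unadjusted *P* value below 0.05 (10.6%), and DESeq2 placed 182 past the adjusted threshold. Markers of the proximal tubule, the main epithelium of the kidney cortex, summed to 7411 to 8748 CPM in the AL rats. In the HD rats they summed to 9610 to 10667 CPM. Of these 5 genes 4 were higher and 1 lower in the HD group.

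Slfn3 and RGD1309362 are the members picked for their low level in the HD group, and Slfn3 had the largest log2 fold change of the 9. Levels are counts scaled to library size (CPM) and TMM-normalized, and log2 fold changes give the HD group relative to the AL group with the standard error (SE) of the edgeR model. A protein named Slfn3 is known as a regulator of growth in T cells and in intestinal epithelium. Whether that protein comes from the transcript measured here or from the locus now called Slfn3 was not examined. Among the AL rats, Slfn3 was at 50.1 CPM in rat 61, 63.8 in rat 71 and 95.9 in rat 88, and among the HD rats it was at 7.38 in rat 64, 21.3 in rat 67 and 20.5 in rat 69. The highest HD rat was thus well below the lowest AL rat, and rat 64 stood below the other HD rats. The mean was 69.9 ± 23.5 CPM (SD over 3 rats) in the AL group and 16.4 ± 7.80 CPM (SD over 3 rats) in the HD group, 4.22-fold lower, with a log2 fold change of -2.08 (SE 0.41). In the order of all tested genes from the lowest log2 fold change upwards, Slfn3 was at position 88.

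RGD1309362 carries the RefSeq synonym Ifgga1 and belongs to the GTPases that interferon gamma induces. Its levels were 15.2 CPM in rat 61, 23.2 in rat 71 and 17.3 in rat 88, and 6.88 in rat 64, 7.74 in rat 67 and 8.34 in rat 69. The groups did not overlap, and the HD rats lay close together. The means were 18.5 ± 4.15 and 7.66 ± 0.739 CPM (SD over 3 rats each), a log2 fold change of -1.27 (SE 0.21), the smallest standard error among the members together with that of Isg15. The gene lies on chromosome 18 of rn5 from 54716314 to 54741766 in 2 exons. In the order of the 11553 tested genes by log2 fold change, RGD1309362 was at position 312, behind Mx1 at position 224.

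**Figure D2:**
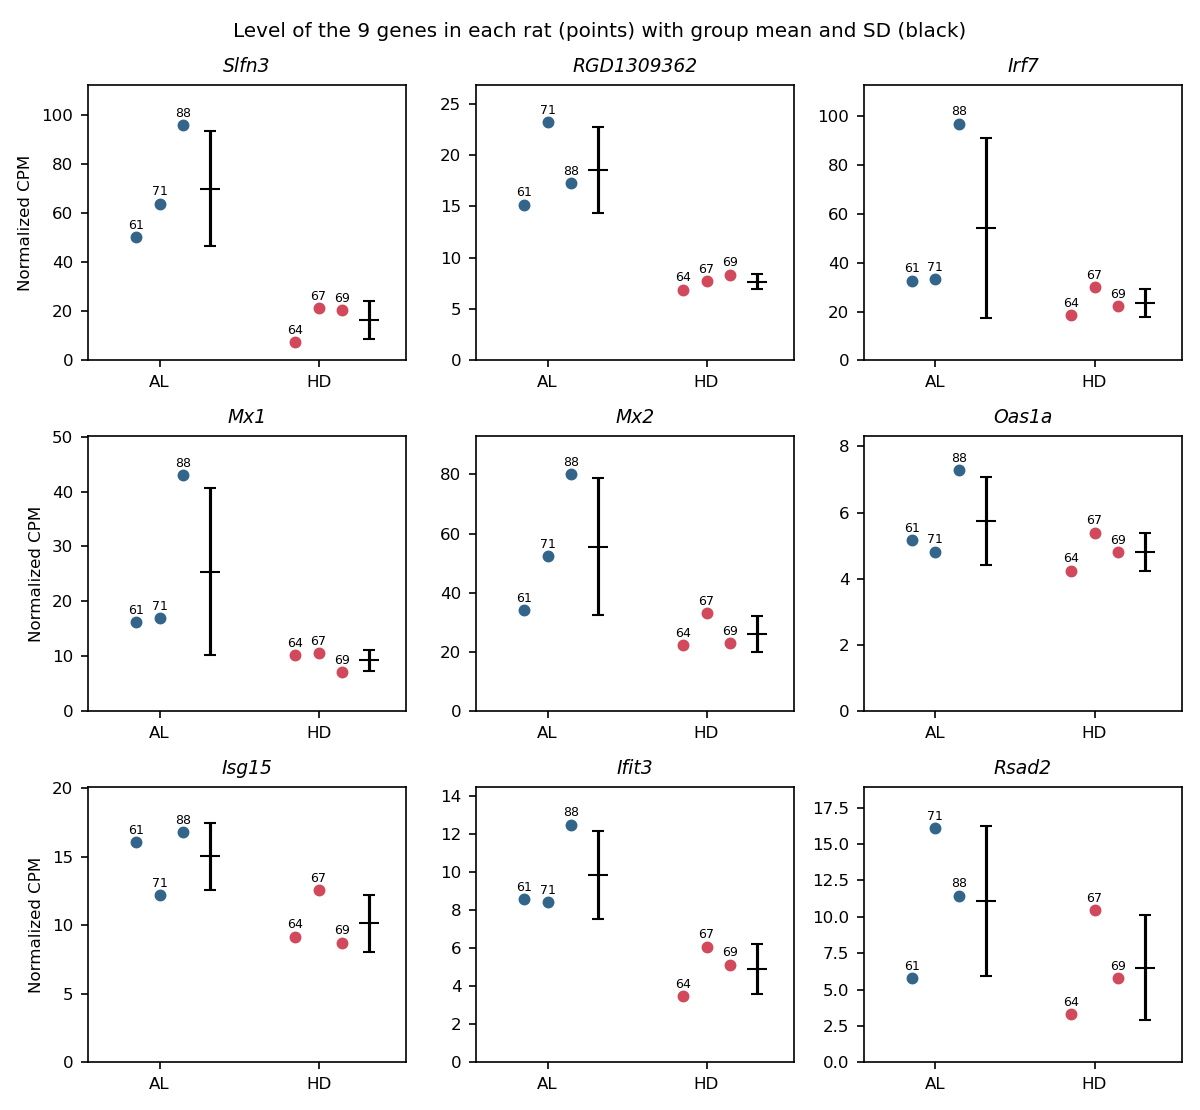
Each panel plots 1 gene, with TMM-normalized CPM on the vertical axis from 0 and a point for every rat, labelled with its number, in the AL and HD groups; the black mark is the group mean and its bar the SD over 3 rats. Slfn3, RGD1309362, Irf7, Mx1, Mx2 and Ifit3 have no HD rat above the lowest AL rat, while Oas1a, Isg15 and Rsad2 overlap.

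Irf7 encodes the transcription factor that amplifies type I interferon production and is itself an interferon target. In rn5 it lies on the minus strand of chromosome 1 from 221166926 to 221169993. Irf7 was at 32.6 CPM in rat 61, 33.2 in rat 71 and 96.9 in rat 88, against 18.6 in rat 64, 29.9 in rat 67 and 22.3 in rat 69. Rat 88 was far above the rest, and the other AL rats were only a little above HD rat 67. The means were 54.3 ± 37.0 and 23.6 ± 5.78 CPM (SD over 3 rats each), with a log2 fold change of -1.20 (SE 0.44), which was -0.47 without rat 88.

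Mx1 and Mx2 encode dynamin-like GTPases that block viral replication. In rn5 they lie on chromosome 11, Mx1 from 41398737 to 41424277 on the minus strand and Mx2 from 41546014 to 41570080 on the plus strand. Mx1 was at 16.3 CPM in rat 61, 17.0 in rat 71 and 43.0 in rat 88, and at 10.2 in rat 64, 10.6 in rat 67 and 7.13 in rat 69. The groups did not overlap, and rat 88 was again far above the rest. The means of Mx1 were 25.4 ± 15.2 and 9.32 ± 1.91 CPM (SD over 3 rats each), with a log2 fold change of -1.45 (SE 0.40) that was -0.83 without rat 88. Mx1 has 6 transcripts in the tables, and for 1 of them the share of the gene's expected count moved between 0.149% and 80.1% from rat to rat. By posterior mean counts the share of the same transcript lay between 17.5% and 36.2%. The division among transcripts was thus uncertain, and only the sum is described.

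For Mx2 the AL rats were at 34.2 CPM in rat 61, 52.4 in rat 71 and 80.1 in rat 88, and the HD rats at 22.4 in rat 64, 33.1 in rat 67 and 22.9 in rat 69. The groups did not overlap, but rat 67 came within reach of rat 61. The means were 55.6 ± 23.1 and 26.2 ± 6.04 CPM (SD over 3 rats each), with a log2 fold change of -1.09 (SE 0.31), and -0.72 without rat 88. Mx1 and Mx2 are paralogs, so reads from shared stretches may have been divided between them.

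Ifit3 encodes a protein with tetratricopeptide repeats that binds partners of the antiviral response, on chromosome 1 of rn5 from 260127719 to 260132860. Ifit3 was at 8.58 CPM in rat 61, 8.43 in rat 71 and 12.5 in rat 88, and at 3.48 in rat 64, 6.10 in rat 67 and 5.15 in rat 69. Every HD rat was below every AL rat. The means were 9.84 ± 2.31 and 4.91 ± 1.32 CPM (SD over 3 rats each), with a log2 fold change of -0.99 (SE 0.28). Isg15, a ubiquitin-like protein that is joined to other proteins and is also secreted, was at 16.0 CPM in rat 61, 12.2 in rat 71 and 16.8 in rat 88, against 9.17 in rat 64, 12.5 in rat 67 and 8.73 in rat 69. The groups overlapped because rat 67 was slightly above rat 71. Isg15 has 2 exons on chromosome 5, from 177098680 to 177099967. The log2 fold change of Isg15 was -0.56 (SE 0.21), with means of 15.02 ± 2.47 and 10.1 ± 2.09 CPM (SD over 3 rats each).

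Rsad2 encodes viperin, a radical SAM enzyme that makes a chain terminator of viral RNA synthesis, on chromosome 6 of rn5 from 54375724 to 54388860. Rsad2 was at 5.80 CPM in rat 61, 16.1 in rat 71 and 11.4 in rat 88, and at 3.31 in rat 64, 10.4 in rat 67 and 5.79 in rat 69. The groups overlapped widely, with the lowest AL rat almost level with HD rat 69 and below HD rat 67. The means were 11.1 ± 5.15 and 6.51 ± 3.62 CPM (SD over 3 rats each), with a log2 fold change of -0.76 (SE 0.49) that moved between -1.27 without rat 67 and -0.40 without rat 71.

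Oas1a encodes a synthetase of 2′-5′-linked oligoadenylate, which activates RNase L, on chromosome 12 of rn5 from 43064736 to 43075396. Oas1a was at 5.16 CPM in rat 61, 4.82 in rat 71 and 7.28 in rat 88, and at 4.24 in rat 64, 5.40 in rat 67 and 4.80 in rat 69. The groups overlapped, and only rat 88 stood above all HD rats. The means were 5.75 ± 1.33 and 4.81 ± 0.576 CPM (SD over 3 rats each), with a log2 fold change of -0.25 (SE 0.25), and -0.04 without rat 88. This was the smallest difference among the 9 members, and a relation between motifs and differences was not tested. The library kit does not keep strand, but the genes that overlap Slfn3 and Oas1a on the opposite strand held at most 2 and 4 counts in any rat.

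The log2 fold change was below 0 for 9 of 9 members, and their median was -1.09 beside 0.0067 over all tested genes, of which 48.7% were below 0. In 6 of the 9 the HD rats were all below the AL rats, while 7.01% of tested genes had this pattern and 7.25% the opposite one. The choice of the genes used this contrast, so nothing is read from these counts. On the TPM scale, which corrects for transcript length, Irf7 had the highest mean level of the members in the AL group, 44.7 ± 31.1 TPM (SD over 3 rats). It was followed by Isg15 at 38.3 ± 4.98, Mx2 at 35.0 ± 15.6, Slfn3 at 22.9 ± 8.42, Mx1 at 12.8 ± 7.85, RGD1309362 at 10.2 ± 3.19, Ifit3 at 7.80 ± 2.01, Oas1a at 6.67 ± 1.69 and Rsad2 at 5.03 ± 2.68 TPM. Of the neighbours in this order, the pair Slfn3 and Mx1 was the only one with a gap larger than the larger of the 2 SDs. In the HD group Isg15 was first at 24.7 ± 4.13 TPM (SD over 3 rats), and Slfn3 came after Oas1a, at 5.09 ± 2.48 TPM and 5.31 ± 0.666 TPM, a difference within their spread.

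Within each diet most members were highest in the same rat, and this was another rat than for most markers of immune cells. Of the 7 interferon-induced members, 6 were highest in rat 88 among the AL rats and 7 were highest in rat 67 among the HD rats. Both held for 6 of the 7, beside 6.65% of all tested genes. Among the 56 other interferon-induced genes, both held for 14 (25.0%), and 12 (21.4%) were highest in rats 71 and 69. On CPM, Slfn3 was highest in rats 88 and 67 too, whereas RGD1309362 was highest in rats 71 and 69. The HD order rests on small differences for both genes. Slfn3 was at 21.3 CPM in rat 67 and 20.5 in rat 69, and in the opposite order on TPM (6.31 and 6.72). RGD1309362 was at 7.74 CPM in rat 67 and 8.34 in rat 69. With the group means removed, the mean log2 level of the 7 members stood 0.51 above its group in rat 88 and 0.35 above it in rat 67. Markers of all leukocytes (Ptprc, Cd53, Laptm5 and Coro1a) were highest in rats 71 and 69 for 4 of 4 genes. The same held for 5 of 7 tested markers of T cells and 9 of 10 of macrophages, beside 17.5% of all tested genes. The T cell markers Cd2, Cd3e, Cd3g, Cd8a and Cd247 and the macrophage marker Itgam passed the count minimum only through rat 71. For these genes the filter favoured rat 71 as the highest AL rat. The lowest rats were partly shared. Rat 61 was the lowest AL rat for Slfn3, RGD1309362, Irf7, Mx1, Mx2 and Rsad2, and rat 71 for Oas1a, Isg15 and Ifit3. Rat 64 was the lowest HD rat for all members but Mx1 and Isg15, which were lowest in rat 69. Summed leukocyte, T cell and macrophage markers were lowest in rats 61 and 64.

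**Figure D3:**
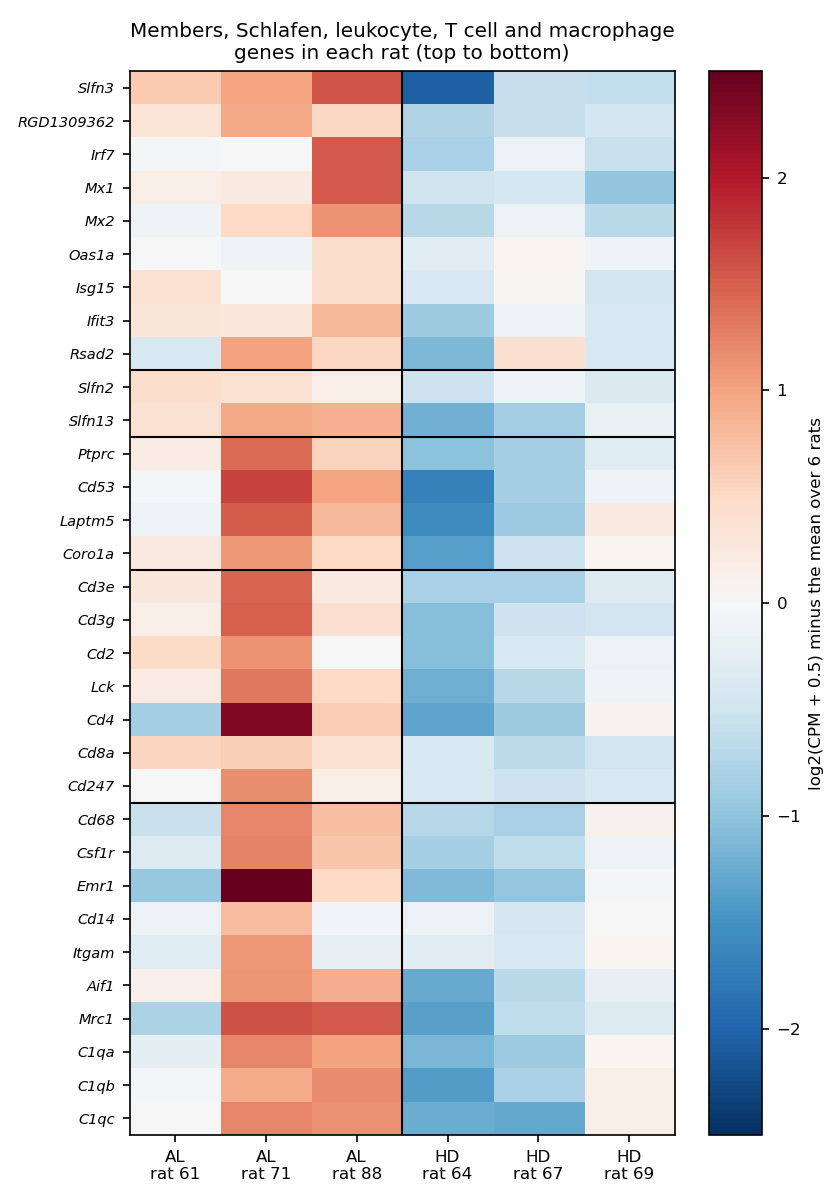
Colours give log2(CPM + 0.5) minus the gene's mean over 6 rats (red above, blue below) for each rat (columns, AL left and HD right), with the members at the top, then Slfn2 and Slfn13, and then leukocyte, T cell and macrophage markers, separated by lines. Most members are reddest in rat 88, RGD1309362 and Rsad2 in rat 71, and most markers are reddest in rat 71.

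Between the diets, leukocyte, T cell and macrophage markers were lower in the HD group, like the members, and the neutrophil list was higher in sum. Summed over the list, leukocyte markers lay between 33.4 and 86.3 CPM in the AL rats and between 10.8 and 32.7 CPM in the HD rats, and 4 of 4 had an unadjusted *P* value below 0.05 and were lower, beside 5.94% of all tested genes. T cell markers summed to 9.53 to 37.4 and 3.23 to 7.80 CPM (6 of 7 tested genes), and macrophage markers to 60.4 to 177 and 33.2 to 69.3 CPM (7 of 10). Of the 6 T cell markers, Cd3e, Cd3g, Cd8a and Cd247 reached the minimum of 30 counts only in AL rat 71. For these the filter itself favoured a lower call, so the T cell share is not read as a result. No gene of these 3 lists passed the adjusted threshold in edgeR, with 0.368 as the smallest adjusted *P* value. DESeq2 placed 1 leukocyte marker, Ptprc (adjusted *P* = 0.0133), and 1 macrophage marker, Aif1 (adjusted *P* = 0.0129), past it. Both were lower without overlap, beside 0.77% of all tested genes called lower by DESeq2, and 0 T cell markers passed. The neutrophil list was at 0.794 to 1.67 CPM in the AL rats and 5.40 to 6.79 CPM in the HD rats, and its 2 tested genes were higher, with overlapping groups and without an unadjusted *P* value below 0.05. Different genes made up this sum. In rat 64 it came mainly from S100a9 (4.67 CPM) and S100a8 (2.04 CPM), with Mpo at 0.0849 CPM. In rats 67 and 69 it came mainly from Mpo (4.60 and 4.80 CPM), so no gene of the list was high in every HD rat. No gene of these lists was at 0 in every rat, though Cd3e, a chain of the T cell receptor complex, had 0 counts in rats 64 and 67. Of the B cell markers none of the 3 in the tables reached 30 counts in any rat, and the endothelial list, at 98.2 to 263 and 74.4 to 243 CPM, had 0 of 5 genes with an unadjusted *P* value below 0.05 in edgeR's test. The part of these cells in the levels of the members was not tested.

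The genes that encode the interferons themselves were at the limit of detection. Of 13 ligand genes listed, 6 were in the tables, and none had more than 1 count in any rat. Ifnb1 and Ifng, which encode interferon beta and interferon gamma, had 0 counts in all 6 rats, which allows a level of up to 0.0985 CPM in the deepest and 0.240 CPM in the shallowest library, taking 3 counts as the upper limit of a count of 0. This limit covers counting error only. A difference in these ligands was not detectable at this depth.

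For receptors and signalling genes most differences were small. Of the 16 tested genes 14 were lower and 2 higher in the HD group, and the median log2 fold change was -0.14, and 2 had an unadjusted *P* value below 0.05, both lower (12.5%, beside 5.94% of all tested genes). These were Il28ra, which encodes the specific chain of the type III interferon receptor, and Ifngr1, the ligand-binding chain of the interferon gamma receptor. Il28ra was at 2.26 ± 0.332 CPM (SD over 3 rats) in the AL group and 1.08 ± 0.212 CPM in the HD group without overlap, a log2 fold change of -1.05 (SE 0.35, adjusted *P* = 0.406 from edgeR). Ifngr1 was at 55.4 ± 9.82 and 39.4 ± 6.79 CPM (SD over 3 rats each), with overlap and a log2 fold change of -0.49 (SE 0.18, adjusted *P* = 0.409 from edgeR). Leaving out rat 88 or 67 took the unadjusted *P* value of Il28ra to 0.05 or more, and leaving out rat 71, 88, 64 or 67 that of Ifngr1.

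The type I receptor chain Ifnar1 had a log2 fold change of -0.11 (SE 0.16), the type III co-receptor Il10rb -0.05 (SE 0.16) and the second gamma receptor chain Ifngr2 0.17 (SE 0.18). The kinases Jak1, Jak2 and Tyk2 lay between -0.17 and -0.04. Stat2 had -0.25 (SE 0.16) and Irf9, which completes the ISRE-binding complex, -0.42 (SE 0.25). Among the brakes on the pathway, Usp18, a protease that removes Isg15 from proteins, had a log2 fold change of -0.61 (SE 0.34), while Socs1 with 0.44 (SE 0.72), Socs3 with -0.27 (SE 0.46), Ptpn2 with -0.05 (SE 0.16) and Ptpn6 with -0.01 (SE 0.10) lay within 1 SE of 0. None of these genes had an unadjusted *P* value below 0.05.

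The other interferon regulatory factors differed in direction. Of 8 tested, 6 were lower and 2 higher, and the median log2 fold change was -0.34, and at an unadjusted *P* value below 0.05 there were 3 lower (37.5%, beside 5.94% of all tested genes) and 1 higher (4.66% of all tested genes). The higher one was Irf4, known for its part in lymphocyte and myeloid differentiation. It was at 3.49, 3.82 and 4.70 CPM in rats 61, 71 and 88, and at 8.49, 9.49 and 13.1 CPM in rats 64, 67 and 69. Every HD rat was above every AL rat, with a log2 fold change of 1.37 (SE 0.25, adjusted *P* = 0.327 from edgeR), and DESeq2 gave an adjusted *P* value of 0.00178.

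Lower were Irf1, an early mediator of interferon gamma, with a log2 fold change of -0.62 (SE 0.22), Irf5, which acts in myeloid cells, with -1.003 (SE 0.37), and Irf8, a factor of macrophage and dendritic cell development, with -1.44 (SE 0.58). Their adjusted *P* values from edgeR were 0.406, 0.422 and 0.453. The unadjusted *P* value of Irf5 stayed below 0.05 in 1 of the 6 fits that left out a rat, the one without rat 61. Irf1 passed it in 4 of 6, all but those without rats 71 and 64, and Irf8 in 3 of 6, all but those without rats 71, 64 and 67. The log2 fold change of Irf8 was -0.77 without rat 71 and between -1.95 and -1.20 without any other rat. Irf3, the constitutive factor behind the first wave of interferon, was at 154 ± 6.30 and 129 ± 16.1 CPM (SD over 3 rats each), a log2 fold change of -0.25 (SE 0.12). Irf2 had 0.09 (SE 0.19).

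**Figure D4:**
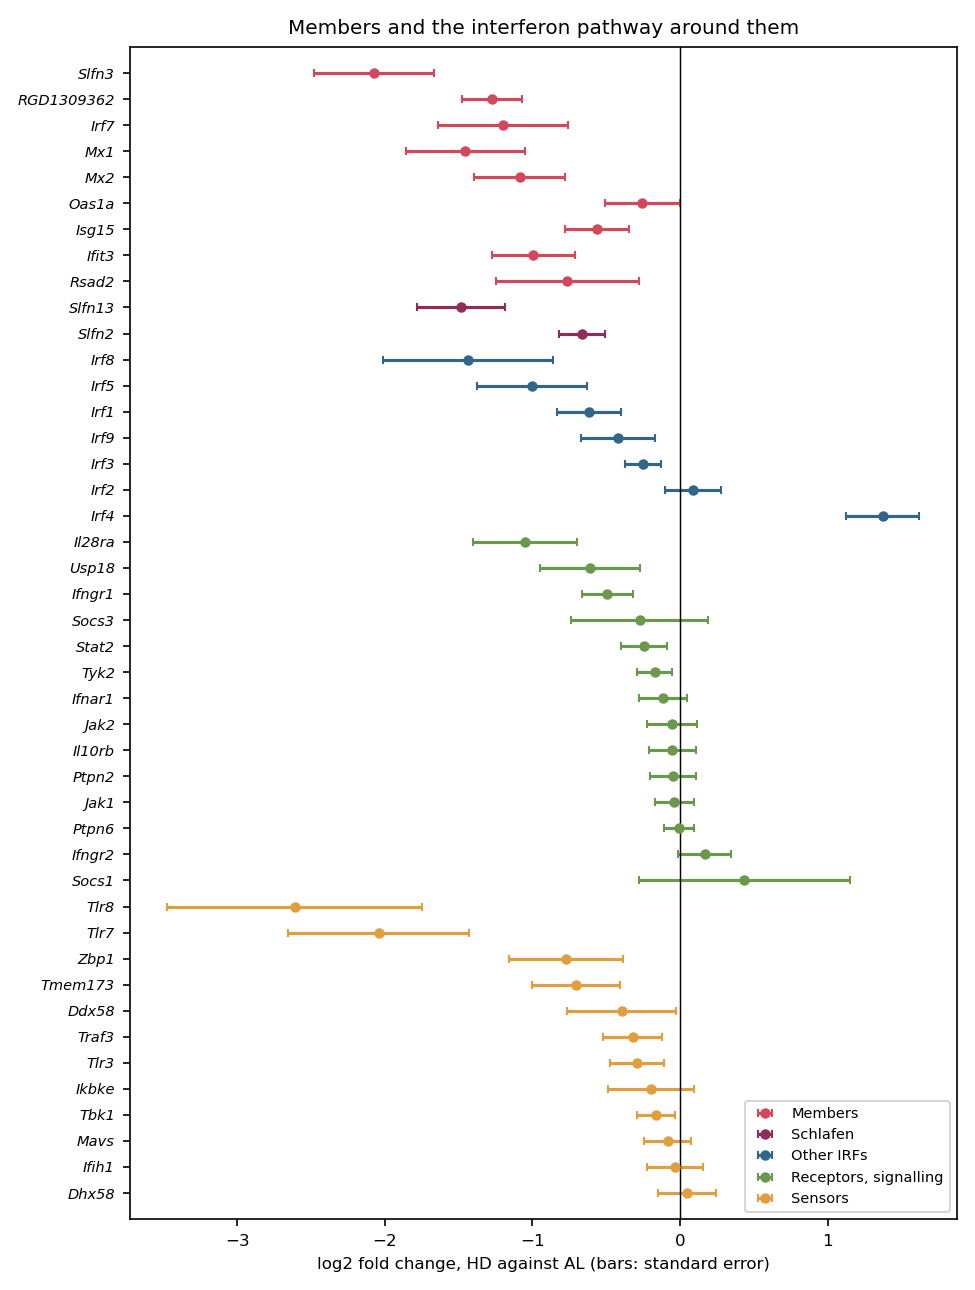
Points give the log2 fold change of the HD group relative to the AL group and bars its standard error from edgeR, for the 9 members and tested genes of the Schlafen family, the other interferon regulatory factors (IRFs), receptors and signalling genes, and sensors. The members and both further Schlafen genes lie left of 0, the kinases and receptors lie near 0 except Il28ra and Ifngr1, and Irf4 lies furthest to the right at 1.37.

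Sensors of foreign nucleic acid lie upstream of interferon production. Of 12 tested, 11 were lower and 1 higher, and the median log2 fold change was -0.31, and 3 were lower at an unadjusted *P* value below 0.05 (25.0%, beside 5.94%). Tlr7 and Tlr8, endosomal receptors of single-stranded RNA found mainly in myeloid cells and B cells, had log2 fold changes of -2.04 (SE 0.61) and -2.61 (SE 0.86), with adjusted *P* values of 0.404 and 0.406 from edgeR. They were scarce, at 1.92 ± 1.13 and 1.33 ± 1.13 CPM (SD over 3 rats each) in the AL group, and macrophage markers moved with them as given above. The unadjusted *P* value of Tlr8 was 0.05 or more without rat 67, and without rat 71 neither Tlr7 nor Tlr8 reached the count minimum. Both passed that minimum only through AL rat 71, where they were high, so the 25.0% is not read as a result. Tmem173, which encodes STING, was at 6.72 ± 1.98 and 4.11 ± 0.923 CPM (SD over 3 rats each), a log2 fold change of -0.70 (SE 0.30, adjusted *P* = 0.468 from edgeR), and it lost its unadjusted *P* value below 0.05 without rat 71, 88, 64 or 67 (log2 fold change -0.44 without rat 71). The cytosolic sensors Ddx58, Ifih1 and Dhx58 had log2 fold changes of -0.39 (SE 0.37), -0.03 (SE 0.19) and 0.05 (SE 0.20), and Zbp1 had -0.77 (SE 0.39).

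Slfn3 sits in a cluster with its relatives. The 3 Schlafen genes Slfn13, Slfn2 and Slfn3 span 112 kb of chromosome 10 in rn5, from 69956875 to 70069233, and Slfn3 itself covers 70045721 to 70069233 on the plus strand in 6 exons. Slfn13, which RefSeq now calls Slfn9, was at 17.3, 25.8 and 24.7 CPM in rats 61, 71 and 88 and at 5.43, 7.10 and 11.4 CPM in rats 64, 67 and 69. Its groups did not overlap, with a log2 fold change of -1.48 (SE 0.30, adjusted *P* = 0.338 from edgeR) and an adjusted *P* value of 0.00129 from DESeq2.

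Slfn2, which keeps T cells and monocytes quiescent, was at 28.7, 27.8 and 23.8 CPM in rats 61, 71 and 88 and at 14.7, 19.4 and 16.4 CPM in rats 64, 67 and 69. The groups did not overlap either, with a log2 fold change of -0.66 (SE 0.15, adjusted *P* = 0.368 from edgeR) and an adjusted *P* value of 0.0335 from DESeq2. Both tested Schlafen genes kept an unadjusted *P* value below 0.05 in edgeR when any 1 rat was left out. Slfnl1 had at most 9 counts in a rat and was not tested. Leukocyte markers, given above, were also lower in the HD group. Within the groups, Slfn13 was highest in rats 71 and 69, like these markers. Slfn2 was highest in rats 61 and 67, and the leukocyte markers summed lowest among the AL rats in rat 61 (33.4 CPM).

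Around the cluster, 14 other genes within 500 kb on either side were tested, of which 4 were lower and 10 higher in the HD group. Those with an unadjusted *P* value below 0.05 were Ccl5, a chemokine made by T cells and macrophages, with a log2 fold change of -1.70 (SE 0.43), and Rasl10b, with 0.98 (SE 0.23). The nearest tested gene on the far side of Slfn13, Nle1, had 0.34 (SE 0.21).

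The wider set of interferon-induced genes was also lower more often than higher. Of 73 genes listed beside the members, 62 were in the tables and 56 were tested, of which 41 were lower and 15 higher, and the median log2 fold change was -0.42. At an unadjusted *P* value below 0.05 there were 15 lower genes, 26.8% of those tested, beside 5.94% of all tested genes, and 1 higher gene. None passed the adjusted threshold in edgeR, and DESeq2 placed 3 past it, each of them lower, beside 0.77% of all tested genes called lower by DESeq2. The count of 15 was 6 without rat 88, 8 without rat 71 and 9 without rat 64. Summed leukocyte and macrophage markers, given above, were also lower in the HD rats.

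The lower genes with the smallest *P* values were Ifi27l2b, Lgals9, Bst2 and Oas2. Ifi27l2b, a mitochondrial protein gene of the Ifi27 family, was at 13.2 ± 6.24 and 3.96 ± 1.23 CPM (SD over 3 rats each), with a log2 fold change of -1.73 (SE 0.39, adjusted *P* = 0.368 from edgeR). Lgals9, which encodes galectin-9, was at 19.1 ± 4.28 and 9.45 ± 2.42 CPM (log2 fold change -1.01, SE 0.26). Bst2 encodes tetherin, which holds budding viruses on the cell surface, and was at 52.0 ± 13.1 and 24.1 ± 9.13 CPM (log2 fold change -1.10, SE 0.32). In each of these 3 genes the groups did not overlap, and DESeq2 gave adjusted *P* values of 0.00438, 0.0325 and 0.0438.

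Oas2, a larger relative of Oas1a, was scarce at 1.68 ± 0.465 and 0.599 ± 0.218 CPM (log2 fold change -1.53, SE 0.46), and its unadjusted *P* value was 0.05 or more without rat 88. The 1 higher gene was Xdh, xanthine dehydrogenase of purine breakdown, at 39.3 ± 8.38 and 51.9 ± 2.99 CPM (log2 fold change 0.40, SE 0.17). Xdh lost its unadjusted *P* value below 0.05 with DESeq2, with RLE normalization, with library size alone and with at least 10 counts required in every rat, and in 5 of the 6 fits that left out a rat (log2 fold change 0.24 without rat 61). Ifit1, the neighbour of Ifit3 in the same family, had a log2 fold change of -0.12 (SE 1.14), with 0.477, 0.222 and 5.29 CPM in rats 61, 71 and 88 and 0.255, 2.75 and 2.33 CPM in rats 64, 67 and 69. Ifit1 was thus scattered within both groups, highest in rats 88 and 67 like Ifit3.

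**Figure D5:**
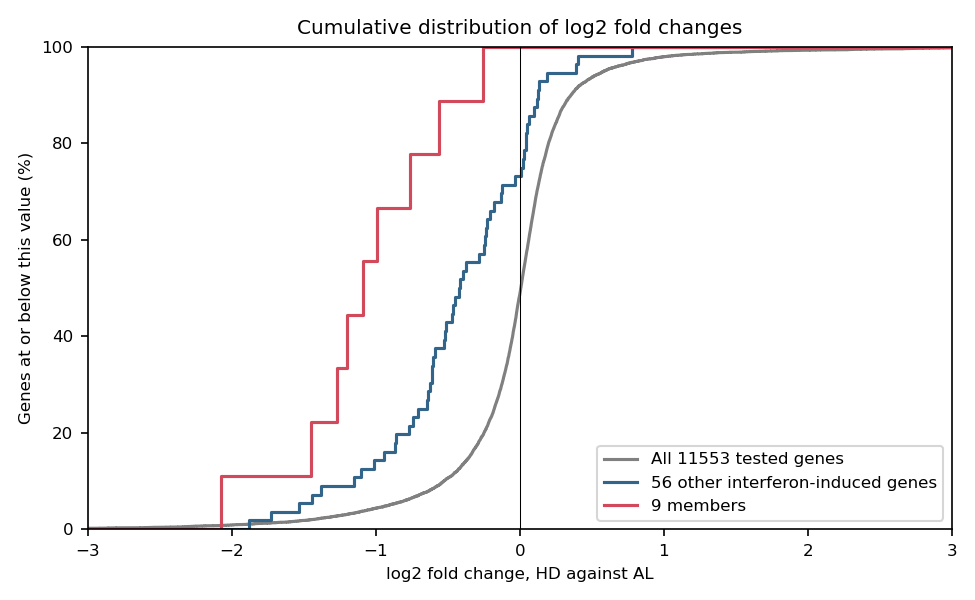
Lines give the percentage of genes (vertical axis) with a log2 fold change of the HD group relative to the AL group at or below the value on the horizontal axis, for all tested genes (grey), the 56 other interferon-induced genes (blue) and the 9 members (red). Through the middle of the range the blue line lies left of the grey one, with medians of -0.42 and 0.0067. The red line shows genes picked with this contrast known.

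RGD1309362 can be set beside other GTPases that interferon gamma induces. Of 6 tested, 6 were lower and their log2 fold changes had a median of -0.79, and 2 had an unadjusted *P* value below 0.05 (33.3%, beside 5.94%). Gbp2, a guanylate-binding protein that coats vacuoles of pathogens, was at 22.9 ± 1.82 and 10.4 ± 4.39 CPM (SD over 3 rats each) without overlap, with a log2 fold change of -1.13 (SE 0.31), and DESeq2 gave an adjusted *P* value of 0.033. Irgm was at 6.68 ± 1.62 and 4.05 ± 0.776 CPM (log2 fold change -0.72, SE 0.27), and its unadjusted *P* value was 0.05 or more without rat 71, 64 or 69. Gbp5 with -0.85 (SE 0.40) and Ifi47 with -0.60 (SE 0.30) did not reach it. All 6 of these GTPases were highest in rat 67 among the HD rats, whereas RGD1309362 was slightly higher in rat 69 (8.34 CPM) than in rat 67 (7.74 CPM).

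Of 7 tested chemokine and regulator genes of the interferon gamma response, 6 were lower and 1 higher, and the median log2 fold change was -0.62, and 3 were lower at an unadjusted *P* value below 0.05 (42.9%, beside 5.94%). Cxcl10, a chemokine that attracts T cells, was at 25.9, 19.5 and 19.8 CPM in rats 61, 71 and 88 and at 11.6, 11.4 and 13.9 CPM in rats 64, 67 and 69. The groups did not overlap, with a log2 fold change of -0.81 (SE 0.17, adjusted *P* = 0.368 from edgeR) and an adjusted *P* value of 0.0159 from DESeq2. The others were Irf1 and Irf8, described above. Cxcl9, a chemokine with the same receptor, had -0.91 (SE 0.49), and Socs1 was the higher one.

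The genes most like the members over the 6 rats were mostly outside these lists. For Slfn3, the 5 genes with the highest Pearson correlation of log2(CPM + 0.5) among 11271 genes were Rtn4, Supt20, RGD1309808, Rrp8 and Tnfrsf26, with r from 0.988 to 0.995. Ifit3 came at position 8 (r = 0.983), and the other members lay between positions 290 and 1359. For RGD1309362 they were RGD1305235, Col11a1, Trim45, Ccnt2 and Chn1 (r from 0.986 to 0.993), with Slfn3 at position 219 (r = 0.901). For the mean of the 7 interferon-induced members with the group means removed, they were Hspa2, St7l, Adat1, Npff and Ifi27l2b (r from 0.983 to 0.995), the last of them an interferon-induced gene. Each correlation rests on 6 rats, and the patterns of Slfn3 and RGD1309362 include the difference between the diets, so these values are a description only.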

How the data were processed

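Poly(A)-selected kidney RNA was sequenced per rat as 100-base single reads with an unstranded kit. The authors assigned reads to transcripts with RSEM 1.1.15 and gene models of build rn5 and deposited, for every transcript, the expected count, which is not normalized, a posterior mean of that count, and TPM values scaled to length and library size. Groups came from the diet label.

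Expected counts were summed per gene and rounded. Genes with at least 30 counts in at least 1 rat were tested with edgeR 4.0.16 in R 4.3.3 (quasi-likelihood, TMM, diet as the only term, Benjamini-Hochberg adjustment over all tested genes, threshold 0.05). Biological variation between rats was 0.242 as a common coefficient. Standard errors were obtained from each fold change and its F statistic. The study's own tool, DESeq2 1.42.0, was an alternative, as were robust edgeR, RLE normalization, library size alone, other count minimums, posterior mean counts, TPM and leaving out each rat. The code was tested on simulated data. Rats are separate animals, and the labels name no batch.

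The 9 members and all gene lists were chosen with earlier results of these data known. Every member and every Schlafen, ligand, receptor, signalling and interferon regulatory factor gene is named, and of the other lists the 4 genes with the smallest edgeR *P* values and 1 of the opposite direction. A few genes that this rule covers are left out here. Ifit1, Ddx58, Ifih1, Cd3e and the neighbours of Slfn3 fall outside this rule and were named after their values were seen. Some genes stand in more than 1 list. Motifs were searched in RefSeq windows of build GRCr8, matched through each gene's transcript. Python 3.11.15, pandas 2.3.3 and matplotlib 3.10.9 were used for tables and plots.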

Additional observations from a re-analysis of the deposited data

How the results depend on the processing

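The log2 fold change of each of the 9 members was below 0 in 126 of 126 fits over 14 settings, and their median ranged from -1.34 to -0.74 when 1 rat was left out. The members were chosen with this contrast known and the fits share the same rats, so this agreement is a description and no test. Genes past the adjusted threshold numbered 0 in edgeR, 182 with DESeq2, 2 with no minimum count, and 0 to 4 when 1 rat was left out. The genes with an unadjusted *P* value below 0.05 ranged from 606 (without rat 88) to 1744 when 1 rat was left out, against 1224, and were 639 without rat 64. The count of lower interferon-induced genes ranged from 6 to 18, against 15. The count over the Schlafen, receptor and signalling, regulatory factor and sensor lists took both directions. It was 11 of 37 tested genes, 10 lower and 1 higher, beside 5.94% and 4.66% of all tested genes. This count ranged from 4 to 12 when 1 rat was left out. It was 4 without rat 71, 7 without rat 88, 6 without rat 64 and 5 without rat 67. The 10 lower genes include Tlr7 and Tlr8, which passed the count minimum only through AL rat 71. The causes were not tested. Members without overlap between the groups numbered 6 on normalized CPM, beside 7.01% of all tested genes lower without overlap on that scale. They numbered 7 on TPM and 7 with library size alone, the last chosen after seeing the data. No share over all genes is given for these scales, and nothing is read from these counts. No paired analysis was possible because the labels give rat numbers that the groups do not share. Genes at a few counts, such as the ligands, are limited by depth.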
